A study of Mus musculus with 21 samples.

Results

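The ribosome biogenesis factors described here are 43 named genes whose products make or assemble ribosomes, taken by name from the 25067 genes of the study. All 43 were found and all 43 passed the filter on low counts. The libraries came from BMDMs, macrophages grown from the bone marrow of male C57Bl6/J mice aged 6 to 12 weeks during 7 days in medium with 15% conditioned supernatant of L929 fibroblasts. The study asks how the loss of Nur77, the nuclear receptor encoded by Nr4a1, alters the response of these macrophages to LPS, the lipopolysaccharide of the outer membrane of bacteria. The cells labelled Nur77-KO, called labelled-KO below, gave 3 libraries each without LPS (0 h) and after 4 h and 18 h of LPS at 100 ng/ml, and the wild-type (WT) cells gave 4 libraries at each of the same times, so 6 groups held 21 libraries in all. For the labelled-KO group the genotype tag reads cre. No driver of a Cre is named in the sources used here, and they do not state if the deletion was made in all cells or in some.

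Counts kept for genes totalled 12301504 to 29650081 per library, and levels below are counts-per-million (CPM) on library sizes scaled by the trimmed mean of M-values (TMM). CPM is not divided by gene length, so levels are compared between groups and not between genes. Nr4a1 itself stood at 12.4, 12.2 and 12.4 CPM in labelled-KO libraries and at 13.4, 16.2, 15.2 and 14.0 CPM in WT libraries at 0 h. Every labelled-KO library was slightly lower, but the difference did not pass the test (log2 fold change -0.25, adjusted p = 0.75, edgeR). It was lower in labelled-KO than in WT at 4 h (-1.77) and higher at 18 h (1.35), and because this goes against the label at 18 h the group is named by its label throughout. The 8 macrophage markers summed to 13110 to 13790 CPM in labelled-KO and 13390 to 14970 CPM in WT libraries at 18 h. The sum hides changes of single markers. By edgeR 3 were higher and 2 lower in labelled-KO at an adjusted p under 0.05, where 16.6% and 15.6% of tested genes were. Their log2 fold changes ran from -0.57 to 1.01. Libraries carry numbers that are not stated to be separate mice, and a p-value here measures how far these libraries spread, which may be technical.

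A ribosome begins in the nucleolus, where RNA polymerase I (Pol I) copies ribosomal DNA into a long precursor RNA. Small nucleolar ribonucleoproteins (snoRNPs) guide chemical marks onto that precursor, the small subunit processome folds and cleaves its first part, and separate factors build the large subunit and carry both subunits to export. The pathway consumes much of a growing cell's energy, and many of its genes are known targets of the transcription factor MYC, which binds with its partner MAX to the E-box CACGTG.

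Promoter sequences from RefSeq on GRCm38.p6, 250 bases before to 50 bases after a listed start, were matched for 38 of the 43 members and searched for the E-box, whose letters read the same on both strands. It was found in 10 of 38 members (26.3%), against 12.0% of 9984 tested genes with a promoter and 8.09% of all 27025 genes with one. Within the 50 bases from the start alone it was found in 8 of 38 members (21.1%), against 1.89% of the tested genes, while in the 250 bases before the start the shares were 5.26% and 10.1%. For comparison, the GC-box GGGCGG, searched on both strands, was in 71.1% of members and 67.3% of tested genes, and the NF-kB motif in 15.8% and 12.3%. Each E-box window is given because these members carry many of the values that follow. Bases run 5′ to 3′ on the gene's strand, the E-box is in capitals, and the number after each gene is the place of its first base, counted from 1 at the listed start and from -1 before it.
Rrn3 at -215, chr16:13780472-13780501 plus strand: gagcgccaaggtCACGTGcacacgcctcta
Rrn3 at -48, chr16:13780639-13780668 plus strand: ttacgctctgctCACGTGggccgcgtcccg
Mybbp1a at 41, chr11:72441355-72441376 plus strand: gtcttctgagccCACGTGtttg
Utp20 at 38, chr10:88826765-88826789 minus strand: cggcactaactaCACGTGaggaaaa
Wdr43 at 18, chr17:71616220-71616249 plus strand: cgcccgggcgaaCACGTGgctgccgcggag
Pno1 at 38, chr11:17211540-17211564 minus strand: tgtacaaccacgCACGTGttcctct
Ltv1 at 29, chr10:13193092-13193121 minus strand: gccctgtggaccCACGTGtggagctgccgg
Tsr1 at 25, chr11:74898092-74898121 plus strand: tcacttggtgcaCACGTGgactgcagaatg
Pes1 at 3, chr11:3963965-3963994 plus strand: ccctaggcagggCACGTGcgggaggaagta
Nop2 at -60, chr6:125131811-125131840 plus strand: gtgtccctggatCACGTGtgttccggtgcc
Grwd1 at 35, chr7:45830740-45830767 minus strand: gggccggagtcgCACGTGtgaaaccgga

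These matches are letters in a window and say nothing of binding. Of the 33 members with a promoter that were lower in labelled-KO at 18 h, 9 held an E-box (27.3%), and of the 5 with a promoter that were not called there, Wdr43 did.

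After 4 h of LPS the factors split into a group that rose and a group that fell, in both genotypes. In labelled-KO cells 14 members rose and 16 fell, where 33.5% of all 12529 tested genes were called higher and 41.5% lower. In WT cells 14 rose and 16 fell as well, where 35.1% of tested genes were called higher and 43% lower, so the shares lay near the background. The 14 that rose were the same genes in both genotypes, and 15 of the 16 that fell were shared (93.8% of each list), with Ddx18 called in labelled-KO alone and Polr1a in WT alone. The labelled-KO and WT comparisons with 0 h share no libraries. The same overlap was not computed over all tested genes. By edgeR this change differed between the genotypes in 0.599% (higher) and 0.2% (lower) of tested genes. The sharing therefore cannot be called particular to these factors. The median log2 change over the 43 members was -0.15 in labelled-KO and -0.14 in WT, against -0.14 and -0.17 over all tested genes. With upper-quartile scaling the median of all tested genes was -0.47 in labelled-KO and -0.52 in WT, and 8 members rose and 26 fell in labelled-KO, against 11 and 26 in WT. With median-of-ratios scaling 15 rose and 13 fell in labelled-KO and 17 rose and 13 fell in WT. The numbers of rises and of falls thus both depend on the scaling, while the members' median stayed within 0.04 of that of all genes.

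**Figure D1:**
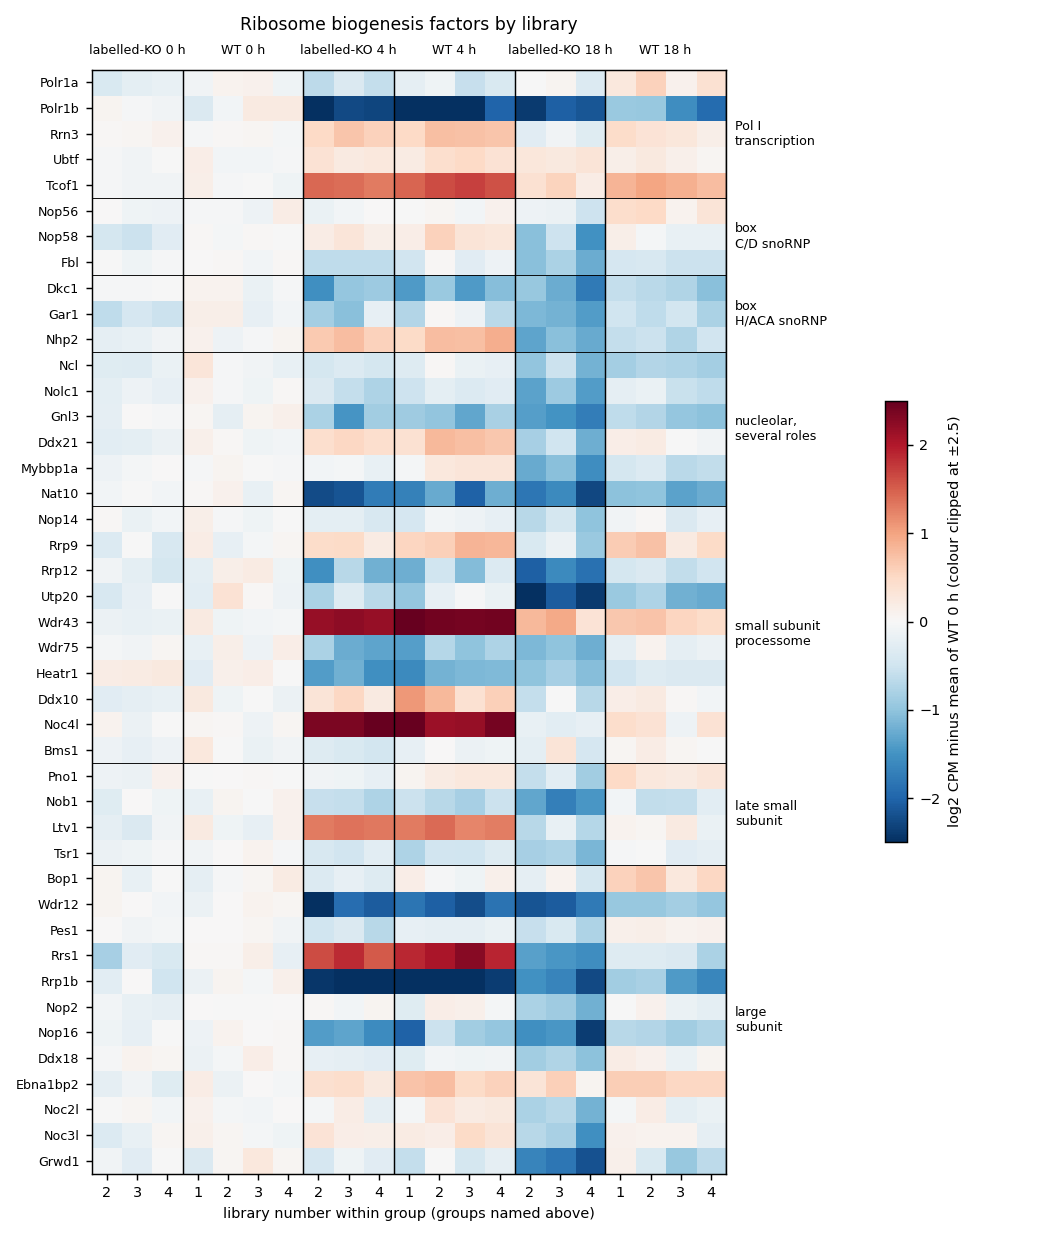
Log2 CPM of each of the 43 factors (rows, grouped by role) in each of the 21 libraries (columns, labelled-KO left of WT at each time), minus the gene's mean in WT at 0 h, with colours clipped at 2.5 either way. Wdr43, Noc4l, Rrs1, Tcof1 and Ltv1 are red in every 4 h library, Rrp1b, Polr1b and Wdr12 are blue there, and most rows are bluer in the labelled-KO than in the WT columns at 18 h.

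The strongest rise was in the small subunit processome, the large particle that forms on the precursor RNA. Wdr43, the counterpart of yeast Utp5, stood at 148, 153 and 148 CPM at 4 h against 29.1, 28.3 and 28.7 CPM at 0 h in labelled-KO libraries. In WT libraries it stood at 198, 172, 171 and 173 CPM at 4 h against 37.9, 30.2, 30.8 and 31.1 CPM at 0 h. Every 4 h library lay far above every 0 h library, with log2 changes of 2.38 in labelled-KO and 2.45 in WT. Noc4l, a processome-associated protein, rose likewise, to 34.2, 34.2 and 37.8 CPM at 4 h against 6.99, 5.91 and 6.56 CPM at 0 h in labelled-KO, and to 41.7, 29.3, 30 and 34.8 CPM at 4 h against 6.81, 6.69, 6 and 6.8 CPM at 0 h in WT. Rrp9, a protein of the U3 snoRNP, and the helicase Ddx10 also rose (0.63 and 0.59 in labelled-KO, 0.72 and 0.74 in WT). In the same particle Heatr1, the counterpart of yeast Utp10, fell by 1.59 in labelled-KO and by 1.26 in WT, and Wdr75, that of Utp17, fell by 1.10 and 0.96. Rrp12, an export factor in yeast, fell by 0.89 and 0.75. Nop14, Utp20 and the GTPase Bms1 were not called at 4 h in either genotype.

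Of the 5 Pol I factors 3 rose in both genotypes and Polr1b fell in both. Tcof1, which encodes the nucleolar protein treacle, stood at 126, 121 and 114 CPM at 4 h against a mean of 43.7 CPM at 0 h in labelled-KO, and at 126, 143, 150 and 139 CPM at 4 h against a mean of 46.2 CPM at 0 h in WT. All 4 h libraries lay far above those at 0 h (log2 changes 1.46 and 1.60). Rrn3, which brings Pol I to the ribosomal DNA promoter, rose by 0.53 and 0.67, and Ubtf, which binds that promoter, by 0.32 and 0.37. The second largest Pol I subunit gene Polr1b went the other way, with 1.38, 1.63 and 1.59 CPM at 4 h against 8.68, 8.03 and 7.78 CPM at 0 h in labelled-KO. In WT it had 0.799, 1.31, 1.19 and 1.97 CPM at 4 h against 6.36, 7.81, 9.59 and 9.61 CPM at 0 h. It thus fell by 2.40 in labelled-KO and 2.61 in WT on the log2 scale. Polr1a, the largest subunit, changed by -0.27 in labelled-KO (not called) and -0.32 in WT (called, but not with median-of-ratios scaling or DESeq2, or without WT 4 h number 3).

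Of the snoRNP proteins, Nop58 of the box C/D class, which guides methylation, rose by 0.63 in labelled-KO and 0.34 in WT. With upper-quartile scaling both calls were lost and its WT change was -0.0022, and the WT call was also lost without WT number 2 at 0 h or at 4 h and without the libraries of highest stromal marker level. Fbl, fibrillarin, the methyltransferase of that class, fell by 0.59 in labelled-KO and by 0.21 in WT, and the WT call was lost under 11 alternatives. The box H/ACA proteins, which make pseudouridine, split as well. Nhp2 rose by 0.83 and 0.74 and Dkc1, dyskerin, the pseudouridine synthase, fell by 1.10 and 1.21 in labelled-KO and WT. Gar1 and Nop56 were not called in either genotype.

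Nat10, which acetylates cytidines of small-subunit ribosomal RNA, had the largest fall of the nucleolar proteins with several roles. It stood at 2.97, 3.15 and 4.21 CPM at 4 h against 13.9, 14.3 and 13.9 CPM at 0 h in labelled-KO, and at 4.43, 6.0, 3.47 and 6.18 CPM at 4 h against 14.7, 15.7, 12.8 and 14.9 CPM at 0 h in WT. The groups did not overlap, and the log2 changes were -2 and -1.52. Gnl3, nucleostemin, fell by 0.94 and 0.99 and Nolc1, a chaperone of snoRNPs, by 0.39 and 0.35. The helicase Ddx21 was the one of these 6 genes to rise (0.67 and 0.66). Ncl, nucleolin, and Mybbp1a were not called.

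Late small subunit factors act largely in the cytoplasm. Ltv1, an assembly factor found in yeast at the beak of the small subunit, rose to 41.7, 43 and 42.1 CPM at 4 h against 14.3, 13.1 and 15.7 CPM at 0 h in labelled-KO, and to 41.5, 45.2, 39.6 and 41.0 CPM at 4 h against 19.7, 15.5, 14.5 and 18.1 CPM at 0 h in WT. The libraries at 4 h and 0 h stood well apart in both genotypes (1.55 and 1.30). Nob1, the nuclease that trims the end of the small-subunit RNA, fell by 0.53 and 0.65 and the GTPase-like Tsr1 by 0.28 and 0.51; the labelled-KO call of Nob1 was lost without labelled-KO number 4, and that of Tsr1 under 6 alternatives. Pno1, the partner of Nob1, was not called.

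Large subunit factors moved far in both directions. Rrs1, which in yeast brings a ribonucleoprotein with the smallest ribosomal RNA into the large subunit, stood at 38.0, 44.6 and 35.3 CPM at 4 h against 6.83, 9.95 and 9.26 CPM at 0 h in labelled-KO and at 45.3, 50.3, 59.6 and 45.6 CPM at 4 h against 12.5, 12.3, 13.5 and 10.5 CPM at 0 h in WT (2.17 and 2.04). Rrp1b stood at 1.38, 1.09 and 0.956 CPM at 4 h against 6.57, 8.03 and 5.56 CPM at 0 h in labelled-KO, and at 0.799, 1.22, 0.548 and 1.43 CPM at 4 h against 7.16, 8.36, 7.62 and 8.67 CPM at 0 h in WT (-2.58 and -2.93). No library of one time reached the range of the other for either gene. Wdr12 fell by 2.21 and 2 and Pes1 by 0.48 and 0.21, while Bop1, which joins both in the PeBoW complex, was not called. Ebna1bp2 rose by 0.57 and 0.64, and its labelled-KO call was lost with upper-quartile scaling. Noc3l rose by 0.36 and 0.29, and Nop16 fell by 1.37 and 1.05. Nop2, an RNA methyltransferase, Noc2l and Grwd1, whose yeast counterpart is a chaperone of a large-subunit protein, were not called.

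**Figure D2:**
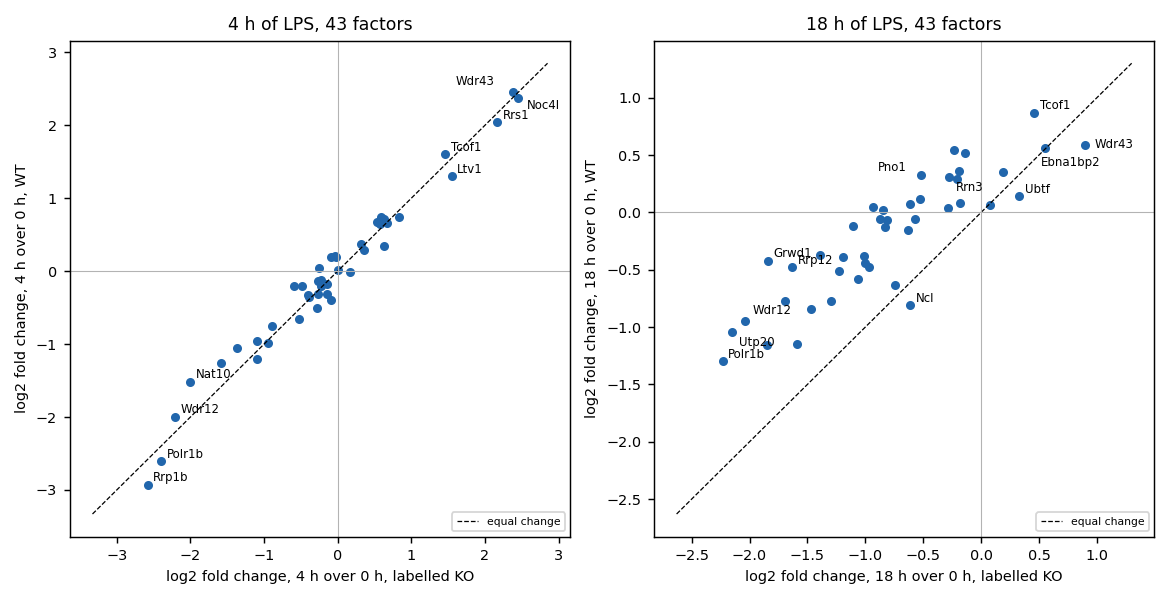
Log2 fold change of each of the 43 factors after LPS against 0 h in labelled-KO cells (horizontal axis) and WT cells (vertical axis), at 4 h on the left and 18 h on the right, with a dashed line where both change equally. At 4 h the points lie along the line from Rrp1b to Wdr43 and Noc4l, and at 18 h most points lie to the left of it.

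After 18 h of LPS, 4 members were higher and 31 lower than at 0 h in labelled-KO cells, where 34.5% of tested genes were called higher and 38.5% lower, and the median log2 change was -0.83, against -0.08 over all tested genes. In WT cells 10 were higher and 18 lower, where the background was 34.8% and 36.3%, and the median was -0.12, against -0.05. With upper-quartile scaling the WT split was 5 higher and 23 lower. The 18 members lower in WT were all lower in labelled-KO too, where they made up 58.1% of the falls, and a further 13 were called lower in labelled-KO alone. This overlap was not computed over all tested genes either. In bulk RNA, fewer cells of a type and less RNA per cell cannot be told apart. Summed over the 43 members, labelled-KO libraries held 949, 1129 and 818 CPM and WT libraries 1326, 1390, 1240 and 1219 CPM at 18 h. Every labelled-KO library lay below every WT library in this sum. The gap depends on keeping 1 transcript per gene. The means were 965 CPM in labelled-KO and 1294 CPM in WT, and with summed transcripts they were closer, at 1217 and 1395 CPM.

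Between 4 h and 18 h few of these factors rose in labelled-KO cells. In labelled-KO 3 members were higher at 18 h than at 4 h and 28 lower (background 33.3% and 32.1%), and in WT 11 were higher and 16 lower (37.2% and 34.5%), or 17 and 12 with upper-quartile scaling. These comparisons use the same 4 h libraries as those above. The 3 higher in labelled-KO were Polr1a, Heatr1 and Rrp1b, and the count was 1 without labelled-KO 4 h number 4. The same genes were higher in WT, with Polr1b, Nop56, Dkc1, Wdr75, Tsr1, Bop1, Wdr12 and Pes1. Rrs1, Noc4l, Ltv1 and Wdr43 were lower at 18 h than at 4 h in both genotypes, with log2 changes of -3.16, -2.66, -1.85 and -1.48 in labelled-KO and of -2.48, -2.08, -1.26 and -1.86 in WT. Wdr75 averaged 12.2 ± 0.646, 5.75 ± 1.2 and 5.68 ± 0.434 CPM at 0, 4 and 18 h in labelled-KO (SD, n = 3) and 12.5 ± 1.51, 6.43 ± 1.29 and 11.4 ± 1.22 CPM in WT (SD, n = 4). Its level in labelled-KO stayed at that of 4 h, while in WT it was close to that of 0 h again.

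Rrn3 and Pno1 were called in opposite directions at 18 h. Rrn3 (chromosome 16, 13780699 to 13814841) stood at 24.7, 28.3 and 24.4 CPM at 18 h against 30.7, 31.1 and 32.2 CPM at 0 h in labelled-KO, and at 41.3, 38.1, 36.3 and 33.1 CPM at 18 h against 29.3, 30.6, 30.9 and 29.1 CPM at 0 h in WT. It was thus lower in every labelled-KO library and higher in every WT library than at 0 h (-0.28 and 0.31), and the labelled-KO call was lost without labelled-KO number 4. Pno1 (chromosome 11, 17203198 to 17211589) stood at 15.0, 18.9 and 12.4 CPM at 18 h against 20.9, 20.7 and 24.5 CPM at 0 h in labelled-KO, and at 32.3, 27.4, 26.9 and 28.3 CPM at 18 h against 22.5, 22.9, 23.4 and 22.5 CPM at 0 h in WT. Here too the 18 h libraries lay wholly below those at 0 h in labelled-KO and wholly above them in WT (-0.52 and 0.33; the WT call was lost with upper-quartile scaling). Polr1a, Nop56, Bop1, Noc4l and Rrp9 were called higher in WT and not called in labelled-KO. The difference between the genotypes in that change was called for Nop56 (-0.54, adjusted p = 0.016, edgeR), Bop1 (-0.66, adjusted p = 0.013) and Rrp9 (-0.78, adjusted p = 0.037), in each case not without labelled-KO number 4. It was not called for Polr1a (-0.16, adjusted p = 0.57) or Noc4l (-0.49, adjusted p = 0.085). The WT calls of Polr1a, Nop56 and Noc4l were lost with upper-quartile scaling, and that of Polr1a also without WT 18 h number 2.

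Before LPS no member differed between the genotypes by edgeR's test. At 0 h 0 members were called higher and 0 lower in labelled-KO, where 1.11% and 2.87% of tested genes were. At an unadjusted p under 0.05, 0 members were higher and 5 lower, and DESeq2 called 0 higher and 1 lower. The fitted change lay below 0 for 39 of 43 members, with a median of -0.10 against 0.01 over all tested genes. Gar1 stood at 2.49, 2.91 and 2.67 CPM in labelled-KO, against 4.34, 4.34, 3.37 and 3.75 CPM in WT, and Nop58 at 15.0, 13.9 and 16.7 CPM in labelled-KO and 20.8, 19.6, 20.8 and 20.4 CPM in WT. Both were lower in every labelled-KO library, as were 9 members in all (background 8.72%), and Heatr1 alone was higher in every one (8.99%). Gar1, Nop58 and Heatr1 are named here because of these values. Of the 30 cell cycle genes 26 were lower in labelled-KO at 0 h, and all 8 tested neutrophil markers were higher.

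At 4 h 2 members were lower and 0 higher in labelled-KO, where 2.7% and 2.87% of tested genes were called. Fbl stood at 16.7, 16.5 and 16.6 CPM in labelled-KO, against 18.6, 26.2, 21.1 and 23.6 CPM in WT (log2 fold change -0.43, SE 0.11, adjusted p = 0.020, edgeR). Pes1 stood at 37.4, 41.1 and 32.7 CPM in labelled-KO, against 45.7, 45.3, 45.1 and 47.3 CPM in WT (-0.31, SE 0.08, adjusted p = 0.031, edgeR). The libraries of the genotypes did not overlap for either, yet each call was lost under 8 alternatives, among them the omission of labelled-KO 4 h number 2 or 4 or of WT 4 h number 2. The count was 0 without any 1 of these 3 libraries, 1 without labelled-KO number 3 or WT number 4, and 4 without WT number 1. In 11 members every labelled-KO library lay below every WT library (background 9.2%), and in 0 above (8.47%). The change from 0 h to 4 h differed between the genotypes for 0 members in either direction (background 0.599% higher and 0.2% lower by edgeR), with 0 higher and 2 lower at an unadjusted p under 0.05 and 0 in either direction by DESeq2.

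**Figure D3:**
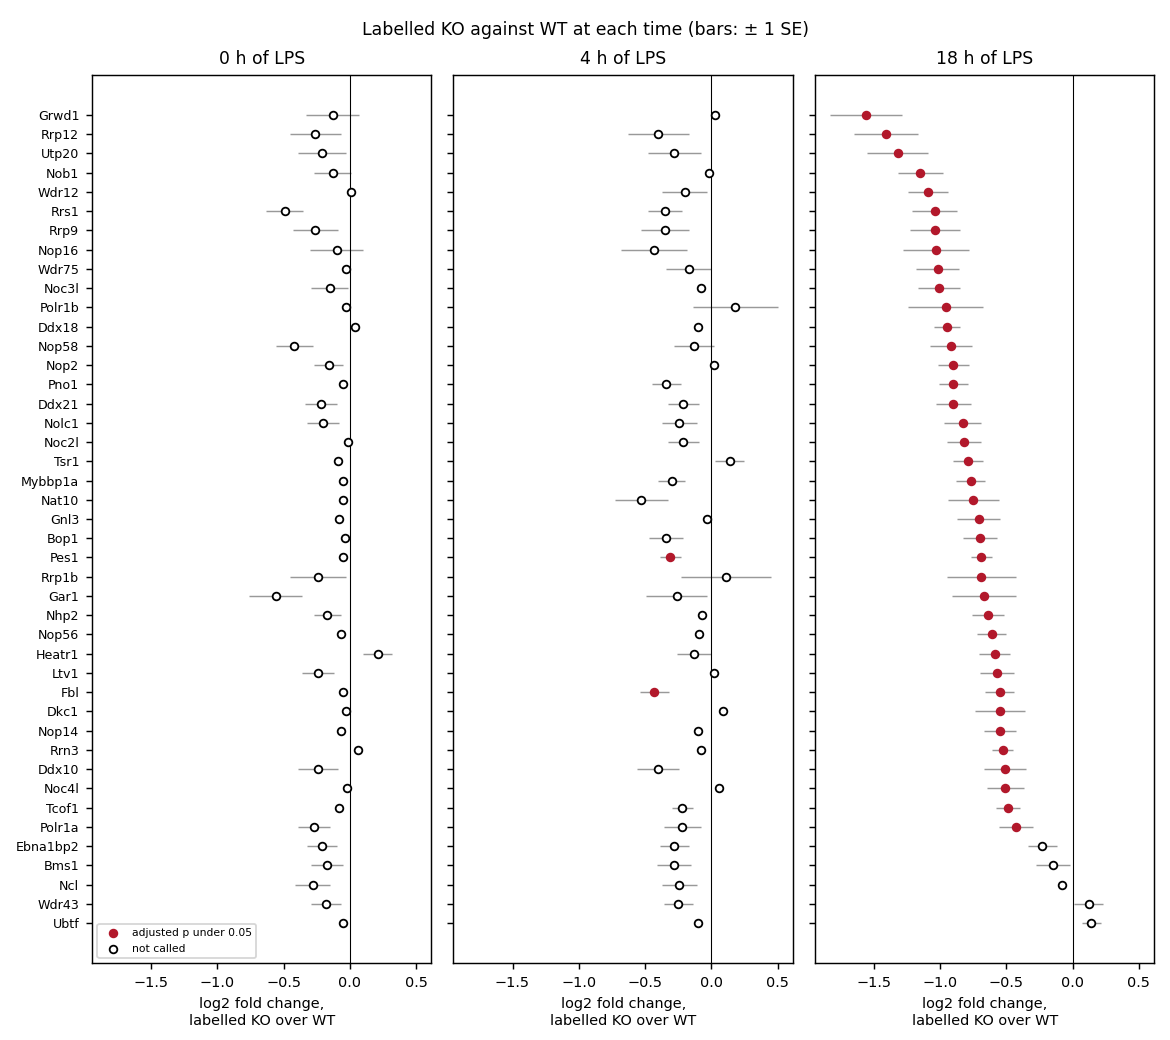
Log2 fold change of labelled-KO over WT for each of the 43 factors at 0, 4 and 18 h of LPS (panels left to right), with bars of 1 SE where one could be computed and filled points at an adjusted p under 0.05. No point is filled at 0 h, Fbl and Pes1 are at 4 h, and 38 are at 18 h, all to the left of 0.

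At 18 h 38 of the 43 members were lower in labelled-KO than in WT and 0 were higher, where 15.6% and 16.6% of tested genes were called. The median log2 fold change was -0.71, against -0.01 over all tested genes. Of the members, 10 were lower by at least 2-fold, and the share of all tested genes at that cut was not computed. In 35 members every labelled-KO library lay below every WT library, as in 17.6% of tested genes, and Ubtf alone lay wholly above WT (18.2% of tested genes). DESeq2 called 36 lower and 1 higher. The change from 0 h to 18 h was itself lower in labelled-KO for 26 members and higher for 0 (background 9% and 8.57%), with a median difference of -0.63 against -0.01. The 18 h libraries enter both comparisons, so these counts are not independent. Members were also chosen with earlier results of these data known, so the counts are no test of the set.

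The large subunit factors had the deepest median of the role groups, -0.92, with 11 of 12 lower. Ddx18 (chromosome 1, 121553835 to 121567980), an RNA helicase, had the smallest adjusted p, with 11.1, 11.9 and 9.89 CPM in labelled-KO and 22.9, 21.7, 17.9 and 21.4 CPM in WT. Every labelled-KO library was well below every WT library (-0.95, SE 0.10, adjusted p = 1e-06, edgeR), while at 0 h the means were 20.8 and 20.3 CPM, and the difference in LPS response was -0.98. Grwd1 (chromosome 7, 45825223 to 45830994) had the largest change, with 1.39, 1.23 and 0.925 CPM in labelled-KO and 5, 3.48, 2.33 and 2.89 CPM in WT (-1.56, SE 0.27, adjusted p = 0.00019, edgeR). The WT libraries of Grwd1 spread more than 2-fold among themselves and still all lay above the labelled-KO ones.

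The 3 PeBoW genes were all lower. Pes1 (chromosome 11, 3963975 to 3980004) stood at 35.3, 40.9 and 31.1 CPM in labelled-KO, against 57.9, 58.8, 56.7 and 57.2 CPM in WT (-0.69, SE 0.08), and Wdr12 at 2, 2.1 and 2.63 CPM in labelled-KO and 4.76, 4.73, 5.07 and 4.70 CPM in WT (-1.09, SE 0.15). Bop1 had 14.3, 17.9 and 12.2 CPM in labelled-KO and 24.8, 27.0, 20.2 and 23.8 CPM in WT (-0.70, SE 0.13). The WT libraries of Pes1 and Wdr12 were close together, and the labelled-KO libraries lay clearly under them. Nop2 stood at 10.9, 10.2 and 8.18 CPM in labelled-KO, against 18.9, 20.5, 17.1 and 16 CPM in WT, and Noc2l at 36.1, 38.8 and 27.7 CPM in labelled-KO and 60.5, 71.8, 52.8 and 55.9 CPM in WT. Neither overlapped. Rrs1, which had risen at 4 h, stood at 4.70, 4.38 and 4.05 CPM in labelled-KO, against 9.70, 9.70, 9.49 and 7.02 CPM in WT at 18 h (-1.04). Noc3l (-1.01), Nop16 (-1.03) and Rrp1b (-0.69) were lower too, and Ebna1bp2, with 22.7, 27.5 and 19 CPM in labelled-KO and 28.0, 27.8, 25.9 and 25.9 CPM in WT, was not called.

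All 4 late small subunit factors were lower, with a median of -0.84. Nob1 stood at 2.61, 1.93 and 2.35 CPM in labelled-KO, against 6.29, 4.27, 4.34 and 5.49 CPM in WT (-1.15, SE 0.17, adjusted p = 5.1e-05, edgeR). Its partner Pno1, whose 18 h values are given above, changed by -0.90 (SE 0.11, adjusted p = 4.6e-06, edgeR), and both had groups that did not overlap. Tsr1 stood at 13.7, 14.4 and 11.0 CPM in labelled-KO, against 23.9, 24.3, 20 and 21 CPM in WT (-0.79), and Ltv1 at 10.4, 14.8 and 10.2 CPM in labelled-KO and 17.9, 17.4, 19.7 and 14.9 CPM in WT (-0.57). The highest labelled-KO library of Ltv1 came close to the lowest of WT.

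In the small subunit processome 8 of 10 were lower, with a median of -0.57. Utp20 (chromosome 10, 88746607 to 88826814), a very large scaffold protein, stood at 3.74, 4.99 and 3.98 CPM in labelled-KO, against 11.3, 12.5, 9.33 and 8.89 CPM in WT (-1.32, SE 0.23). Rrp12 stood at 1.31, 1.84 and 1.49 CPM in labelled-KO, against 4.21, 4.42, 3.70 and 4.08 CPM in WT (-1.41, SE 0.24). For both genes the lowest WT library was above all labelled-KO libraries by a wide margin. Rrp9 (-1.04), Wdr75 (-1.02), Heatr1 (-0.59), Nop14 (-0.55), Ddx10 and Noc4l (both -0.51) were also lower. Wdr43, with 56.8, 62.9 and 41.2 CPM in labelled-KO and 51.9, 53.2, 46.9 and 44.5 CPM in WT, was not called, and neither was Bms1, whose labelled-KO libraries (39.1, 58.0 and 34.8 CPM) lay on both sides of those of WT (47.7, 52.5, 48.1 and 46.1 CPM).

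Of the 6 nucleolar proteins with several roles 5 were lower, with a median of -0.76. Mybbp1a stood at 31.7, 36.7 and 26.0 CPM in labelled-KO, against 55.9, 60.5, 47.7 and 49.8 CPM in WT (-0.77, SE 0.11), and Ddx21 at 43.4, 54.9 and 32.9 CPM in labelled-KO and 86.5, 88.7, 77.2 and 72.9 CPM in WT (-0.90, SE 0.13). The genotypes did not overlap for either. Nolc1 (-0.83), Nat10 (-0.75) and Gnl3 (-0.71) followed. Ncl (chromosome 1, 86344719 to 86359455) stood apart with 215, 294 and 186 CPM in labelled-KO and 236, 255, 249 and 237 CPM in WT. Its labelled-KO libraries lay both above and below those of WT, and the log2 fold change was -0.08 (adjusted p = 0.69, edgeR).

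All 6 snoRNP core proteins were lower, by 0.55 to 0.92 on the log2 scale. Nop58 stood at 9.84, 14.3 and 7.04 CPM in labelled-KO, against 22.5, 19.7, 18.0 and 17.9 CPM in WT. Nop56 had 19.8, 19.4 and 15.0 CPM in labelled-KO and 29.3, 30.5, 22.9 and 27.0 CPM in WT, and Fbl had 12.4, 14.9 and 11.0 CPM in labelled-KO and 19.2, 19.4, 17.7 and 17.8 CPM in WT. The transcript kept for Nop56 here and above, that with the highest mean count, is a non-coding RefSeq record. The genotypes did not overlap in Nop58, Nop56 or Fbl. Of the box H/ACA proteins Gar1 changed by -0.67, Nhp2 by -0.64 and Dkc1 by -0.55, and the libraries of Dkc1 overlapped (4.96, 4.03 and 2.77 CPM in labelled-KO, 6.35, 6.07, 5.71 and 4.64 CPM in WT).

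Among the Pol I factors 4 of 5 were lower. Rrn3, with the 18 h values given above, changed by -0.53 (SE 0.08, adjusted p = 9.1e-05, edgeR), Tcof1 by -0.49, Polr1b by -0.96 and Polr1a by -0.43. Polr1b stood at 1.48, 1.93 and 1.78 CPM in labelled-KO, against 4.27, 4.19, 2.73 and 2.1 CPM in WT, where numbers 1 and 2 lay above numbers 3 and 4. Ubtf went against the rest with 113, 110 and 116 CPM in labelled-KO and 103, 109, 102 and 95.8 CPM in WT. Its labelled-KO libraries were narrowly above all of WT, and the difference (0.14, adjusted p = 0.15, edgeR) did not pass the test.

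**Figure D4:**
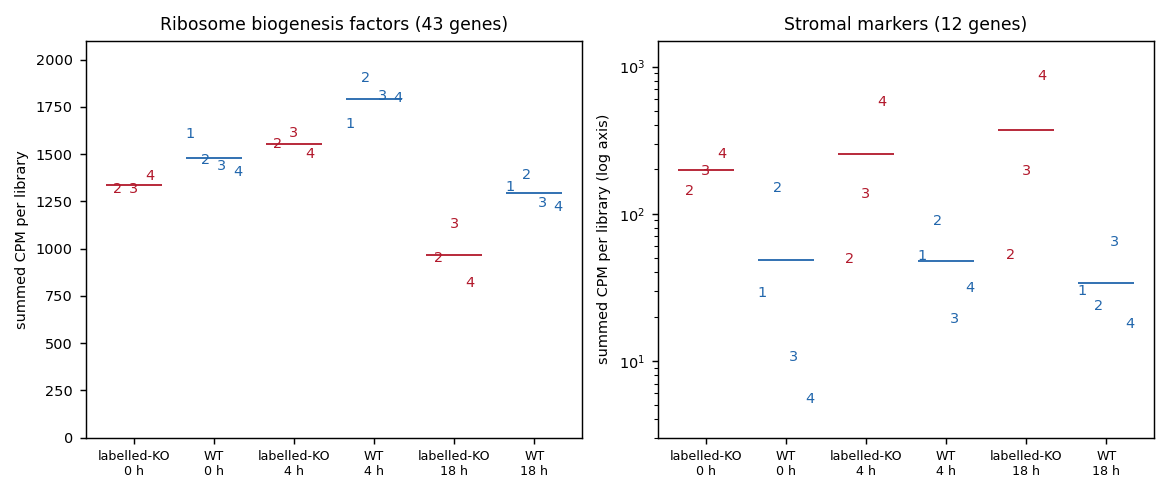
Summed CPM per library of the 43 factors (left, linear axis from 0) and of the 12 stromal markers (right, log axis), with library numbers as points, group means as lines, and labelled-KO left of WT at each time. At 18 h the 43 factors sum to 949, 1129 and 818 CPM in labelled-KO, below all WT libraries, while labelled-KO number 2 has a stromal sum of 52.3 CPM, within the WT range of 17.9 to 63.8 CPM.

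Markers listed for other cell types differed between the genotypes at 18 h. Of the 12 stromal markers, genes of fibroblasts, 10 were tested and 9 were higher in labelled-KO, with a median log2 fold change of 3.49, and none of the 12 was at 0 in every library. Their summed level was 52.3, 195 and 867 CPM in labelled-KO libraries number 2, 3 and 4 and 17.9 to 63.8 CPM in WT libraries. The stromal gap was not limited to 18 h. All 10 tested markers had a fitted change above 0 at 0 h (median 2.03) and at 4 h (2.64), with 0 called. Their sums were 142, 195 and 255 CPM in labelled-KO and 5.48 to 149 CPM in WT at 0 h. At 4 h they were 49.0 to 576 CPM and 19.2 to 89.3 CPM. Labelled-KO number 2 was below every WT library in 39 of the 43 members, as in 33.6% of tested genes. It is 1 library, looked at alone after its stromal level was seen. Its sums of neutrophil (319 CPM), monocyte (416 CPM) and dendritic cell markers (21.8 CPM) lay above those of every WT library. A fit with it alone cannot tell a difference of genotype from one of that single library. With that library as the only labelled-KO one at 18 h, its spread taken from the other groups, 29 members were lower and 0 higher, where 5.3% and 6.12% of tested genes were called, and 10 were lower in the change from 0 h (2.46% of tested genes). With the mean of the stromal markers as a covariate 36 were lower (9.79% of tested genes) and 28 lower in the change from 0 h (9.23%). After each group's library of highest stromal mean was removed 29 were lower (8.38%) and 10 in the change from 0 h (3.23%). Without labelled-KO number 4 at 18 h alone 17 were lower in the change from 0 h (6.13%), and 1 member was called higher in labelled-KO. Neutrophil markers, 6 of 8 tested higher, summed to 319 to 450 CPM in labelled-KO and 183 to 267 CPM in WT, and dendritic cell markers, 3 of 4 tested higher, to 17.3 to 23.8 CPM in labelled-KO and 8.69 to 10.6 CPM in WT. Monocyte markers, 1 higher and 0 lower of 6 tested, summed to 336 to 416 CPM in labelled-KO and 257 to 289 CPM in WT. Those 3 sums did not overlap between the genotypes. Within WT their means also rose from 0 h to 18 h of LPS. The neutrophil mean went from 27.6 to 218 CPM, the dendritic cell mean from 1.37 to 9.99 CPM and the monocyte mean from 21.4 to 270 CPM. The sums thus change with LPS, so the 18 h sums alone cannot be read as numbers of such cells. The neutrophil sum also differed between the genotypes before LPS. At 0 h it was 68.5 to 119 CPM in labelled-KO and 19.2 to 36.3 CPM in WT, without overlap. The monocyte sum went the other way at 0 h, with means of 15.7 CPM in labelled-KO and 21.4 CPM in WT. The dendritic cell sums overlapped at 0 h. The part of these sums in the result was not tested. The 30 cell cycle genes, 3 higher and 9 lower, summed to 485 to 526 CPM in labelled-KO and 477 to 532 CPM in WT at 18 h.

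Other genes of the pathway were also lower in labelled-KO at 18 h, in 36.4% to 75.6% of each list tested. Of 45 other large subunit factors 34 were lower and 0 higher (75.6% lower, background 15.6%), with Nle1 (-1.60) and Rrp15 (-1.39) at the front. Nle1, a factor of late large subunit assembly, stood at 0.348, 0.438 and 0.427 CPM in labelled-KO, against 1.34, 1.29, 1.21 and 1.13 CPM in WT, with no overlap. These levels are near the floor, so the size of the Nle1 change rests on few reads per labelled-KO library. Of 39 other small subunit factors 24 were lower, among them the RNA methyltransferase Dimt1 (-1.34) and the processome protein Pwp2 (-1.01), and the helicase gene Ddx52 was higher (0.22). The snoRNP assembly factors Shq1 (-1.01) and Znhit6 (-0.78) were among 6 lower of 9, and the exosome subunits Exosc5 (-1.11) and Exosc7 (-1.06) among 6 lower of 13. The other Pol I genes had 4 lower of 11, with Polr1e at -1.51 and Twistnb at -0.57.

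With labelled-KO number 2 as the only labelled-KO library at 18 h the counts lower were 19 of 45 large subunit, 10 of 39 small subunit, 1 of 9 snoRNP, 1 of 13 exosome and 0 of 11 Pol I genes, where 5.3% of all tested genes were lower. Without the libraries of highest stromal mean 21 of the large subunit genes were lower (8.38% of tested genes). Without labelled-KO number 4 at 18 h the snoRNP, exosome and Pol I counts were 2, 3 and 2 (10.5% of tested genes), and the exosome count was 3 also without labelled-KO number 2 or WT number 1 or 2.

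The ribosomal protein genes encode the parts that these factors assemble. Of 77 tested, 1 was higher and 73 lower at 18 h than at 0 h in labelled-KO and 1 was higher and 69 lower in WT, with medians of -1.25 and -0.78. Between the genotypes at 18 h, 38 were lower and 1 higher in labelled-KO, with a median of -0.30, and this count was 19 with the stromal covariate, 22 without the libraries of highest stromal mean and 10 with labelled-KO number 2 alone. Rps3a1 (-1.53, and -1.26 already at 0 h) and Rps19 (-0.64) were lower. These genes have near-identical copies in the genome, so their counts are uncertain.

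**Figure D5:**
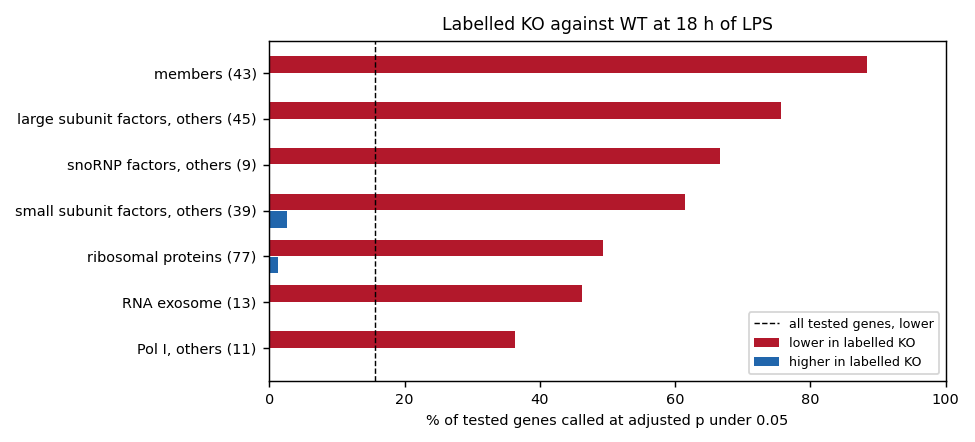
Percentage of tested genes called lower (red) or higher (blue) in labelled-KO than in WT at 18 h of LPS, for the 43 members and 6 other gene lists of the pathway, with a dashed line at 15.6%, the share of all tested genes called lower. The members stand at 88.4% lower, the other large subunit factors at 75.6% and the other Pol I genes at 36.4%. Members and lists were chosen with earlier results of these data known, so the shares are no test of the sets.

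The Myc network, the proteins that bind the E-box with MAX or compete for it, had 4 of 11 tested genes higher and 0 lower in labelled-KO at 18 h (background 16.6% and 15.6%). Mxd1, a MAX partner known to oppose MYC, stood at 951, 861 and 1110 CPM in labelled-KO, against 358, 353, 403 and 417 CPM in WT (1.35, adjusted p = 9.8e-09, edgeR). Mxi1, another such partner, stood at 17, 22.9 and 24.3 CPM in labelled-KO, against 8.48, 6.85, 5.71 and 7.76 CPM in WT (1.57, adjusted p = 2.1e-07, edgeR). Neither overlapped between the genotypes, and both differed in the change from 0 h to 18 h (1.21 and 1.71). Max (0.44) and Mlxip (0.30) were the others.

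Myc itself was lower in labelled-KO before LPS and not called later. It stood at 3.65, 4.58 and 3.78 CPM in labelled-KO, against 7.77, 9.41, 6.26 and 9.94 CPM in WT at 0 h, without overlap (-1.06, adjusted p = 0.0018, edgeR). At 18 h it stood at 1.92, 3.94 and 3.41 CPM in labelled-KO, against 4.94, 4.77, 4.02 and 4.70 CPM in WT. All 3 labelled-KO libraries were lower there too, but the difference did not pass the test (-0.58, adjusted p = 0.052, edgeR), and at 4 h the change was -0.15.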

How the data were processed

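The deposited table holds estimated counts for RefSeq transcripts, in multiples of 0.5 and not scaled to depth. The submitters' processing notes name CASAVA 1.8.2, HISAT2 2.1.0 and the mm10 build. No source used here names the counting tool or how it treated strand and shared reads. Per the labels' protocols, the kit was KAPA mRNA HyperPrep. Values were rounded to whole numbers, with 0.5 upward. Of 42361 transcript IDs, 42203 matched a RefSeq table and 65 a GENCODE annotation, and the other 93, holding 0.232 to 2.229% of counts, were left out. The transcript with the highest mean stood for each of 25067 genes, of which 8193 had several. Deposited columns totalled 23478281.5 to 55852932. The spans of 14 members overlap another gene, so without strand their reads may be shared.

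Differences were tested in edgeR 4.0.16 (quasi-likelihood, R 4.3.3) with 6 group means, TMM factors and the default filter, which kept 12529 genes. A gene was called when its adjusted p (Benjamini-Hochberg over all genes kept) was under 0.05. The SE is the log2 change over the square root of F, with none near 0. Groups came from the titles. Members, lists and tests were chosen with earlier results of these data known. Members were named per role, up to 2 called of each sign after LPS and up to 10 per genotype comparison by adjusted p, with up to 2 genes of each sign from each other list. Other genes were named after their values were seen. Alternatives were other scalings, other filters, summed transcripts, DESeq2 1.42.0, a replicate block, fits of only the groups compared, omission of each library and, added after seeing the data, 3 settings based on stromal markers. Same-numbered WT libraries at 4 h and 0 h had deviations from their group means that correlated at 0.228 to 0.316 (-0.234 to 0.088 for differing numbers). The numbers may thus pair those groups, but the labels state no pairing and the main fit had no replicate block. In no other comparison was every pair over 0.1. For labelled-KO at 18 h and 4 h the same numbers correlated at 0.096 to 0.502 (-0.476 to 0.114 for differing numbers). The script was tested on simulated data. The plots used matplotlib 3.10.9 and Python 3.11.15.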

Additional observations from a re-analysis of the deposited data

Results flagged for a closer look

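In 9 of the 129 groups of 4 WT libraries, over the 43 members and 3 times, 1 library stood far from the other three by Dixon's test; chance gives about 1 in 20. Library number 1 did so 4 times. It also stood apart over all genes at 0 h and 4 h, by a chi-square of counts between library pairs per degree of freedom. This was 28.8 to 33.7 at 0 h for pairs with number 1, against 8.12 to 13.9 among the other WT libraries. At 4 h it was 43.7 to 69.2 against 6.99 to 13.2, and at 18 h 9.99 to 13.6 against 6.74 to 15.7. This measure also grows with depth. Mybbp1a was lowest at 73.3 CPM in WT 4 h number 1 (91.0 to 94.5 CPM in the others), and Ddx18 at 16.5 CPM in the same library (18.8 to 19.3 CPM). Wdr43 was highest at 37.9 CPM in WT 0 h number 1 (30.2 to 31.1 CPM) and at 198 CPM in WT 4 h number 1 (171 to 173 CPM). Noc4l was lowest in number 3, at 6 CPM at 0 h (6.69 to 6.81 CPM) and 6.03 CPM at 18 h (8.45 to 8.91 CPM), and Wdr12 was highest there at 18 h, at 5.07 CPM (4.70 to 4.76 CPM). WT 18 h number 4 was lowest for Rrs1, at 7.02 CPM (9.49 to 9.70 CPM), and for Noc3l, at 13.2 CPM (16.3 to 16.6 CPM).

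The change from 0 h to 18 h of LPS differed between the genotypes for 26 members by edgeR's test of the interaction, all lower in labelled-KO. The 10 of smallest adjusted p were Ddx18 (-0.98), Pno1 (-0.85), Wdr12 (-1.09), Pes1 (-0.65), Rrn3 (-0.59), Heatr1 (-0.79), Mybbp1a (-0.72), Noc2l (-0.81), Wdr75 (-0.98) and Tsr1 (-0.69) on the log2 scale. The calls of Rrn3 and Tsr1 were lost without the libraries of highest stromal mean, and those of Tsr1 and Wdr75 with labelled-KO number 2 as the only labelled-KO library at 18 h.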

How the results depend on the processing

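The count of 38 members lower in labelled-KO at 18 h lay between 29 and 38 under all alternatives run, and between 33 and 38 with 1 library left out; 1 was higher with DESeq2 (0 to 1 with 1 library left out). The 26 lower in the change from 0 h became 13 without labelled-KO number 4 at all times, 10 without the libraries of highest stromal mean, 10 with labelled-KO number 2 alone, and 17 to 29 with 1 library left out (0 to 1 higher). The replicate block gave 36 and 29. For labelled-KO against WT at each time it joined libraries of the same number across the genotypes. For the changes with LPS it joined them within each genotype. The labels state neither pairing. At 18 h, deviations from group means correlated between the genotypes at -0.053 to 0.164 for the same numbers and -0.352 to 0.316 for differing ones. The 36 is thus not a check against a known pairing. At 0 h 1 was lower with no filter, with the replicate block, in a fit of only the groups compared and with DESeq2 (0 to 1 with 1 library left out). At 4 h 0 were lower without labelled-KO number 4 at all times, in a fit of only the groups compared, with the stromal covariate and without the libraries of highest stromal mean (0 to 4 with 1 library left out). Upper-quartile scaling gave 26 lower at 4 h in WT, 5 higher at 18 h in WT, 17 higher at 18 h against 4 h in WT, and 8 higher and 26 lower at 4 h in labelled-KO; the log2 change of Nop58 at 4 h in WT was -0.0022. With 1 library left out, the members higher at 18 h against 4 h in labelled-KO numbered 1 to 4.

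Mean summed CPM over the members was 1337 in labelled-KO and 1479 in WT at 0 h, 1555 and 1791 at 4 h, and 965 and 1294 at 18 h. With upper-quartile factors it was 1512 and 1674 at 0 h and 1398 and 1600 at 4 h. With summed transcripts it was 1267 and 1351 at 0 h, 1625 at 4 h in labelled-KO, and 1217 and 1395 at 18 h; with median-of-ratios factors it was 1616 at 4 h in labelled-KO. Of 105 named pairs of member and comparison, 22 lost their call in at least 1 of their alternatives, and 72 of 2000 such fits ended or reversed a call. The cause was not tested. The replicate block moved no other count of members by over 1.5 times.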
